A study of Mus musculus with 12 samples.

Results

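The genes described here are 10 enzymes and cofactors that remove superoxide, hydrogen peroxide and lipid peroxides: Gpx1, Gpx4, Prdx1, Prdx2, Txn1, Txnrd1, Sod1, Sod2, Cat and Gclm. They were chosen by name, with earlier results of these data known, and all 10 were found among the 46986 features of the expression table. All 10 were also among the 8553 genes that had at least 1 RPKM (reads per kilobase of gene, scaled to the depth of the library) in at least 3 libraries and entered the test. The RNA came from hematopoietic stem cells (HSCs), the cells that renew the blood, which had been sorted from bone marrow of C57BL/6 mice aged 12 weeks.

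The 12 libraries formed 4 groups of 3. ABX 5-FU mice were given 4 antibiotics in their drinking water over 4 to 6 weeks (vancomycin, ampicillin, metronidazole and neomycin), then 1 intravenous dose of 200 mg/kg 5-fluorouracil (5-FU), and were taken on day 12. ABX mice had the same antibiotics and no 5-FU, Ctrl 5-FU mice had 5-FU without antibiotics and were also taken on day 12, and Ctrl mice had neither. 5-FU is an antimetabolite that kills dividing marrow cells, so the day 12 samples come from regenerating marrow, and oral antibiotics of this kind are used to remove gut bacteria, whose numbers were not part of these data. RNA of 2000 sorted cells went into each library. The sort gates are not stated in the labels. Nor do the labels state whether a group's 3 libraries are 3 animals, so a p-value here covers the spread between libraries, which may be technical.

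Superoxide leaks from mitochondria and from NADPH oxidases. Superoxide dismutases convert it to hydrogen peroxide, and catalase, glutathione peroxidases and peroxiredoxins reduce the peroxide to water. Glutathione and thioredoxin supply the electrons, and NADPH recharges both. Ferroptosis is a death by iron-dependent peroxidation of membrane lipids, against which Gpx4 is the central enzyme because it reduces peroxides within phospholipids. HSCs are known for low oxidant levels and for losing stem cell function when oxidants accumulate.

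Promoter sequence is shown for the 3 genes whose level changed with 5-FU in both comparisons, and for Gclm, which had the largest estimated 5-FU change without antibiotics. The sequences were read from RefSeq promoters of build GRCm38.p6 and cover at most 250 bases before the start, 5′ to 3′ on the strand of the gene. Capitals mark matches to the antioxidant response element core TGACNNNGC, bound by NRF2 with a small Maf protein, or to the AP-1 site TGANTCA, searched on both strands. The Prdx1 window is chr4:116685349-116685543 on the plus strand, Gclm chr3:122245307-122245556 on the plus strand, Txn1 chr4:57956412-57956661 on the minus strand and Cat chr2:103485161-103485403 on the minus strand.
Prdx1: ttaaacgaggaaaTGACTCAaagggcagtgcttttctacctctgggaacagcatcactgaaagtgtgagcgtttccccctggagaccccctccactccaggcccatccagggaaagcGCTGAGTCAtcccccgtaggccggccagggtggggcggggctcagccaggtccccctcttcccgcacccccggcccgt
Gclm: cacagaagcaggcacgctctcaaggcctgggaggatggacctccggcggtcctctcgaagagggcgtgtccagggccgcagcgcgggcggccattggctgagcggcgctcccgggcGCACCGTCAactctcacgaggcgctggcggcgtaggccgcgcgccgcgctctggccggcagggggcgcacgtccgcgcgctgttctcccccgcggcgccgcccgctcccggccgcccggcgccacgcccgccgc
Txn1: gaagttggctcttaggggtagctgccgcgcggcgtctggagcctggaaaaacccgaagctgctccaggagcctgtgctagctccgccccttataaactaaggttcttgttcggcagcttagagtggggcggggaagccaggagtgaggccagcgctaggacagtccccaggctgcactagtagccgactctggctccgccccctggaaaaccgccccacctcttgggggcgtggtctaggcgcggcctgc
Cat: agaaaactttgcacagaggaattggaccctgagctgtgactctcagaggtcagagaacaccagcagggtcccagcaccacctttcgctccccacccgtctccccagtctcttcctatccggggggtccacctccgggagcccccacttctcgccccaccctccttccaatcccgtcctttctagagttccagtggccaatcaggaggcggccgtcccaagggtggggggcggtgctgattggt
Prdx1 held 2 AP-1 matches, of which the one nearer to the start overlaps the only antioxidant response element match, GCTGAGTCA. Gclm held the match GCACCGTCA, 134 bases before its RefSeq start. In windows of 250 bases before to 50 after each RefSeq start, 4 of the 10 genes (Prdx1, Txnrd1 at its second start, Sod1 and Gclm) held an antioxidant response element match, against 14.0% of 27025 genes with such windows. The AP-1 site was in 1 of the 10, against 8.97% of genes. The FOXO site GTAAACA was in 0 of the 10, against 4.05%. These are matches of letters and say nothing of binding.

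Some measures of the whole experiment bear on every value below. The deposited RPKM summed to 153338 ± 3628 per ABX 5-FU library and 173185 ± 6347 per ABX library, and to 149253 ± 6172 per Ctrl 5-FU library and 169263 ± 4633 per Ctrl library (SD, n = 3 each). The reads behind a library, estimated from how finely its low values are stepped, came to 27.9 to 54.9 M, and at that depth a gene had at least 265 reads in every library (the lowest being Gclm in ABX 5-FU library 2), a counting error of at most 6.13%. ABX libraries, at 32.7 ± 4.59 M, did not overlap Ctrl libraries, at 50.4 ± 5.49 M. Ctrl 5-FU library 1 stood apart, with a Pearson correlation across genes of 0.972 and 0.971 to its 2 companions, against 0.985 to 0.993 for all other pairs within groups. No i7 index was shared between libraries that had and had not received 5-FU, so index and 5-FU cannot be told apart. The 18 HSC markers were all above the lowest value of the table in each group, and their summed level was 268.5 to 296.7 RPKM in ABX 5-FU against 214.2 to 259.5 in ABX libraries, and 288.6 to 310.6 in Ctrl 5-FU against 241.5 to 260.6 in Ctrl libraries. In bulk RNA, fewer cells of a type and less RNA per cell cannot be told apart.

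Because RPKM is per gene length, levels of different genes can be set in order. Gpx1, the cytosolic glutathione peroxidase that reduces soluble peroxides, was by far the most abundant, with a mean of 837 RPKM over the 12 libraries and a place at percentile 99.8 of the genes tested. Prdx2 and Prdx1, peroxiredoxins of the cytosol, followed at 55.9 and 28.2 RPKM. Thioredoxin (Txn1) averaged 15.5, Gpx4 13.1 and the mitochondrial manganese superoxide dismutase Sod2 10.6 RPKM. The copper-zinc enzyme Sod1 averaged 8.43, catalase (Cat) 7.99 and thioredoxin reductase 1 (Txnrd1) 5.54 RPKM. Gclm, the modifier subunit of the ligase that starts glutathione synthesis, was the lowest at 1.99 RPKM, percentile 30.9. Neighbours in this order from Txn1 to Txnrd1 had overlapping ranges over the 12 libraries. The ranges of Gpx1 (703.9 to 962.5) and Prdx2 (47.2 to 64.9) overlapped no neighbour, nor did that of Gclm (1.15 to 3.28). The range of Prdx1 (19.999 to 36.5) overlapped that of Txn1 (10.2 to 21.1).

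The 10 genes also differed in how much they varied. Sod2 was the steadiest, with a highest library 1.15 times its lowest. Gpx1 and Prdx2 spanned 1.37 times, and Gclm spanned 2.84 times. Within groups the coefficient of variation of Gclm reached 48.1% in ABX and 32.0% in ABX 5-FU libraries, against at most 5.87% for Sod2 in any group.

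**Figure D1:**
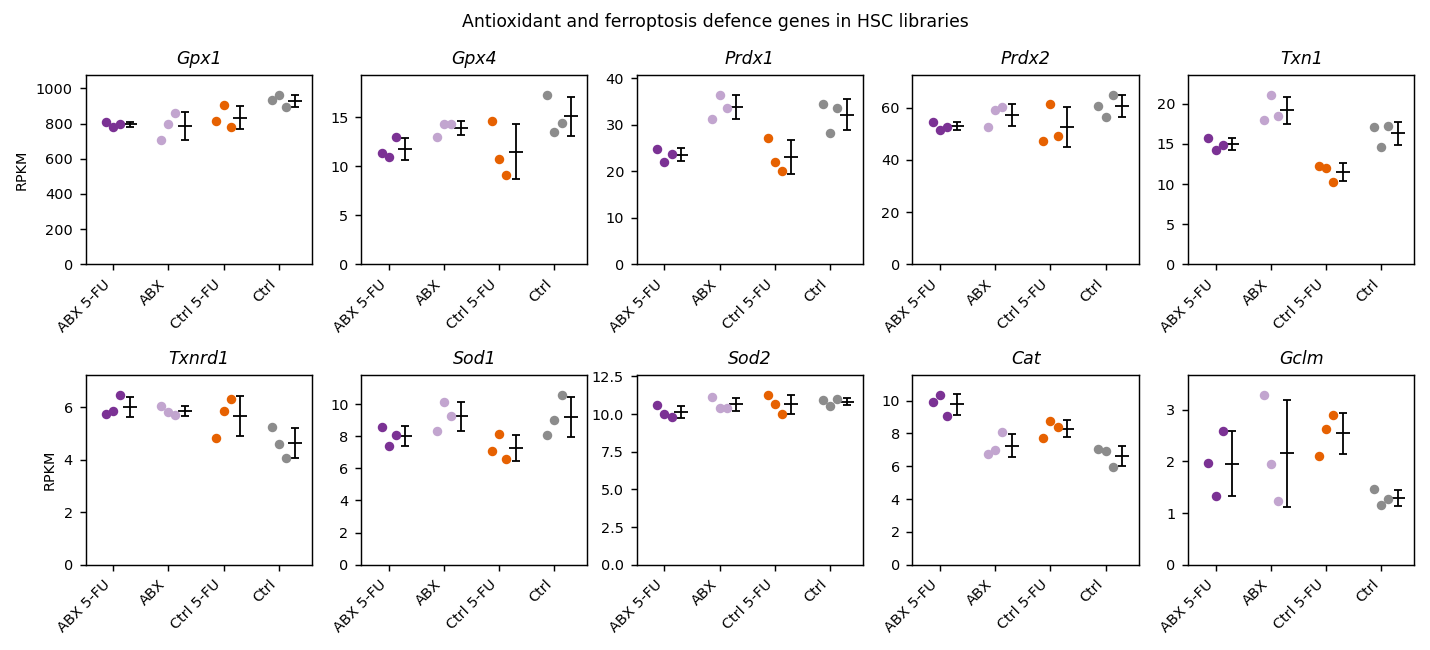
Each panel plots 1 gene, with RPKM on a linear axis from 0 and the 4 groups side by side; points are the 3 libraries of a group, and the black bar beside them is the mean ± SD. Prdx1 and Txn1 sit lower in ABX 5-FU than in ABX and lower in Ctrl 5-FU than in Ctrl libraries, Cat sits higher in both, and Sod2 stays between 9.79 and 11.3 RPKM throughout.

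The first question was how HSCs on day 12 after 5-FU differed from HSCs of mice without it, asked once with and once without antibiotics. Prdx1 and Txn1, which form the cytosolic peroxiredoxin and thioredoxin relay, fell in both comparisons, and Cat rose in both. With antibiotics, 3 of the 10 genes changed (1 higher, 2 lower; limma, Benjamini-Hochberg adjusted p at or under 0.05), against 30.2% of the 8553 genes tested, 13.7% higher and 16.5% lower. Without antibiotics, 3 of 10 changed (1 higher, 2 lower), against 21.6% of the genes tested, 9.74% higher and 11.8% lower. The counts are thus close to the background of genes that changed. The median log2 change of the 10 genes was -0.09 with antibiotics and -0.18 without, against -0.01 and 0.00 over all genes tested. Changes are given as log2(RPKM + 1), which understates the change of low genes such as Gclm.

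Prdx1, an abundant cytosolic peroxiredoxin that also acts as a chaperone, had 24.9, 22.1 and 23.8 RPKM in ABX 5-FU libraries, against 31.3, 36.5 and 33.7 RPKM in ABX libraries. It had 27.3, 22.1 and 19.999 RPKM in Ctrl 5-FU libraries, against 34.5, 28.3 and 33.7 RPKM in Ctrl libraries. In both comparisons every 5-FU library lay below every library without 5-FU. Prdx1 fell by 0.50 on the log2 scale with antibiotics (SE 0.12, limma adjusted p = 0.00822), and the call held under all 19 alternatives tried (adjusted p 0.00274 to 0.0374). It fell by 0.46 without antibiotics (SE 0.12, adjusted p = 0.0168), and this call was lost under 5 of 19 alternatives, of which the highest adjusted p was 0.0655, without Ctrl 5-FU library 3. It was also lost without Ctrl library 1 (adjusted p = 0.0569) and without Ctrl library 3 (adjusted p = 0.0625).

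Txn1, the cytosolic thioredoxin that reduces peroxiredoxins and ribonucleotide reductase, had 15.8, 14.2 and 14.9 RPKM in ABX 5-FU libraries, against 17.98, 21.1 and 18.5 RPKM in ABX libraries. It had 12.2, 12.0 and 10.2 RPKM in Ctrl 5-FU libraries, against 17.1, 14.6 and 17.2 RPKM in Ctrl libraries. Neither pair of groups overlapped, and the Ctrl 5-FU libraries were the lowest of all 12. Txn1 fell by 0.47 without antibiotics (SE 0.094, limma adjusted p = 0.00672), a call that held under all 19 alternatives. It fell by 0.33 with antibiotics (SE 0.094, adjusted p = 0.0209). This second call was lost without ABX library 2 (adjusted p = 0.0896), without ABX 5-FU library 2 (0.0777) or 3 (0.0574), and when values were rescaled to a common sum, where the change was -0.18 (adjusted p = 0.109).

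Cat, the peroxisomal enzyme that splits hydrogen peroxide without a cofactor to recharge, had 9.90, 10.3 and 9.06 RPKM in ABX 5-FU libraries, against 6.72, 6.99 and 8.07 RPKM in ABX libraries. It had 7.71, 8.74 and 8.40 RPKM in Ctrl 5-FU libraries, against 7.07, 6.91 and 5.95 RPKM in Ctrl libraries. Each 5-FU library lay above each of its counterparts. Cat rose by 0.38 with antibiotics (SE 0.089, limma adjusted p = 0.00848), a call that held under all 19 alternatives. The rise without antibiotics was 0.28 (SE 0.089, adjusted p = 0.0427) and lay close to the threshold: the call was lost under 11 of 19 alternatives, among them 9 of 12 with a library left out, and its adjusted p reached 0.157 without Ctrl library 3. The direction was the same in all of them.

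**Figure D2:**
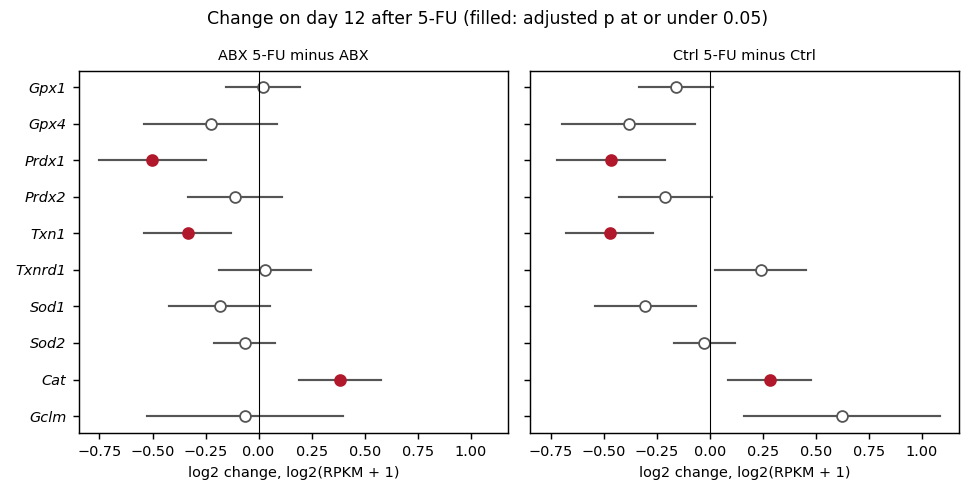
Points give the log2 change of each gene and lines its 95% confidence interval from limma, for ABX 5-FU minus ABX at left and Ctrl 5-FU minus Ctrl at right; filled points have an adjusted p at or under 0.05. Prdx1 and Txn1 lie left of 0 and Cat right of 0 in both panels, and Gclm has the widest interval.

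Markers of other blood cells moved with 5-FU as well. The 14 erythroid markers summed to 258.4 to 595.7 RPKM in ABX 5-FU against 169.0 to 179.0 in ABX libraries, and to 209.1 to 315.7 in Ctrl 5-FU against 154.3 to 423.3 in Ctrl libraries. Of the 8 tested, 4 were higher and 1 lower in ABX mice and 2 were higher and 1 lower in Ctrl mice (limma, adjusted p at or under 0.05). The globin gene Hbb-bt was higher in both, at 136.6 ± 19.8 RPKM in ABX 5-FU against 34.6 ± 8.23 in ABX libraries and 107.6 ± 11.7 in Ctrl 5-FU against 29.8 ± 21.6 in Ctrl libraries (SD, n = 3). Gata1, a transcription factor of erythroid and megakaryocytic cells, was also higher in both, at 2.83 ± 0.300 RPKM in ABX 5-FU against 0.553 ± 0.0720 in ABX libraries (limma adjusted p = 0.000835) and 3.90 ± 1.45 in Ctrl 5-FU against 1.51 ± 0.559 in Ctrl libraries (adjusted p = 0.00641). The erythroid transcription factor Klf1 and the erythropoietin receptor gene Epor were higher in ABX mice, calls lost under 3 and 6 of 19 alternatives. Car2, a carbonic anhydrase gene and the most abundant of these markers without 5-FU, went the other way, at 88.4 ± 7.94 RPKM in ABX 5-FU against 126.1 ± 7.63 in ABX libraries (limma adjusted p = 0.005) and 70.6 ± 10.7 in Ctrl 5-FU against 120.4 ± 5.07 in Ctrl libraries (adjusted p = 0.00124). The markers of late red cells Alas2 and Slc4a1 averaged at most 0.492 RPKM in any group.

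The 12 megakaryocyte and platelet markers summed to 167.7 to 187.7 RPKM in ABX 5-FU against 155.1 to 164.5 in ABX libraries, which did not overlap, and to 157.0 to 463.2 in Ctrl 5-FU against 135.8 to 221.4 in Ctrl libraries, which did. Of the 11 tested, 3 were higher and 1 lower in ABX mice, and 5 were higher and 1 lower in Ctrl mice. Selp, which encodes P-selectin, had 13.7 ± 0.701 RPKM in ABX 5-FU against 1.30 ± 0.157 in ABX libraries (limma adjusted p = 1.17e-05) and 14.8 ± 0.721 in Ctrl 5-FU against 3.04 ± 1.14 in Ctrl libraries (adjusted p = 6.39e-05). Gp1ba and Vwf were higher in both comparisons, and Itga2b and Gp1bb in Ctrl mice. The Gp1bb call was lost under 7 of 18 alternatives. Vwf is an HSC marker too. The 15 lymphoid markers summed to 44.8 to 49.9 RPKM in ABX 5-FU against 37.6 to 44.7 in ABX libraries, and to 48.7 to 70.4 in Ctrl 5-FU against 38.5 to 53.9 in Ctrl libraries. Of the 4 tested, 1 changed: Klrb1c, a receptor gene of natural killer cells, was higher in both, at 5.85 ± 0.512 RPKM in ABX 5-FU against 0.708 ± 0.113 in ABX libraries (limma adjusted p = 1.49e-05) and 5.38 ± 1.05 in Ctrl 5-FU against 0.865 ± 0.336 in Ctrl libraries (adjusted p = 3.54e-05). Nkg7, on the same list, averaged 28.6 ± 2.87 RPKM in ABX 5-FU against 25.1 ± 1.85 in ABX libraries. It averaged 41.8 ± 7.52 RPKM in Ctrl 5-FU against 33.25 ± 8.30 in Ctrl libraries. The B cell gene Cd79b had lower means with 5-FU, at 11.3 ± 1.36 RPKM in ABX 5-FU against 13.8 ± 1.58 in ABX libraries. In Ctrl 5-FU it averaged 9.96 ± 1.755 RPKM, against 12.4 ± 1.04 in Ctrl libraries. The T cell gene Cd3e and another B cell gene, Ms4a1, were at the lowest value of the table in all libraries.

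The 9 macrophage markers summed to 266.3 to 311.1 RPKM in ABX 5-FU against 169.4 to 201.7 in ABX libraries, and to 319.4 to 377.0 in Ctrl 5-FU against 208.4 to 267.2 in Ctrl libraries, most of it Apoe. Of the 6 tested, 2 were higher in ABX mice and 1 in Ctrl mice, and none was called lower. Apoe was higher in both comparisons. C1qa, C1qb and C1qc went the other way in their means in both comparisons and were not called. C1qc, the highest of them, averaged 3.28 ± 1.82 RPKM in ABX 5-FU against 5.37 ± 3.79 in ABX libraries. It averaged 2.48 ± 1.36 RPKM in Ctrl 5-FU against 3.59 ± 2.68 in Ctrl libraries. Cd68, a lysosomal protein gene, was higher in ABX mice, at 18.2 ± 1.86 RPKM in ABX 5-FU against 8.59 ± 3.31 in ABX libraries (limma adjusted p = 0.0315), and averaged 13.7 ± 4.98 RPKM in Ctrl 5-FU against 6.96 ± 3.28 in Ctrl libraries, which did not pass. The Cd68 call in ABX mice was lost under 6 of 19 alternatives. Adgre1, which defines macrophages, averaged at most 0.0383 RPKM in any group, and Marco was at or near the lowest value of the table. The 15 neutrophil and monocyte markers summed to 139.3 to 165.9 RPKM in ABX 5-FU against 111.9 to 142.6 in ABX libraries, and to 151.7 to 448.4 in Ctrl 5-FU against 137.9 to 154.5 in Ctrl libraries. Of the 7 tested, 1 was higher in ABX mice (Prtn3) and 3 in Ctrl mice (S100a8, S100a9 and Ngp). The Ngp call (limma adjusted p = 0.0498) was lost under 14 of 19 alternatives, and that of S100a9 under 1. Ctrl 5-FU libraries 1 to 3 had 3.33, 8.77 and 48.1 RPKM of Ngp, against 0.642, 2.13 and 3.21 RPKM in Ctrl libraries. For S100a8 they had 21.4, 57.7 and 143.3 RPKM, against 5.22, 8.23 and 10.96 RPKM in Ctrl libraries. The 9 markers of stroma and endothelium summed to 1.34 to 29.8 RPKM in ABX 5-FU against 1.39 to 1.81 in ABX libraries, and to 1.22 to 15.4 in Ctrl 5-FU against 1.115 to 6.38 in Ctrl libraries, and neither of the 2 tested changed. The part of these markers in the 5-FU changes of Prdx1, Txn1, Cat and the wider lists given here was not tested.

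The other genes of peroxide removal did not pass the test in either 5-FU comparison. Gpx1 had 807.4, 780.3 and 799.9 RPKM in ABX 5-FU against 703.9, 798.1 and 861.7 RPKM in ABX libraries, a log2 change of 0.02 (95% interval -0.16 to 0.19, limma adjusted p = 0.878). It had 813.8, 907.6 and 780.0 RPKM in Ctrl 5-FU against 933.8, 962.5 and 894.5 RPKM in Ctrl libraries, a log2 change of -0.16 (-0.34 to 0.02, adjusted p = 0.17). The groups overlapped in both. Rescaling to a common sum took the second value to 0.02 and the first to 0.19 (adjusted p = 0.0353).

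Gpx4, the defence against lipid peroxides, had 11.3, 10.96 and 13.002 RPKM in ABX 5-FU against 13.022, 14.3 and 14.4 RPKM in ABX libraries. It had 14.6, 10.8 and 9.11 RPKM in Ctrl 5-FU against 17.3, 13.5 and 14.4 RPKM in Ctrl libraries. The first pair did not overlap, by a narrow margin, and in the second pair Ctrl 5-FU library 1 was the one library within the Ctrl range. The log2 change was -0.23 with antibiotics (-0.54 to 0.09, limma adjusted p = 0.254) and -0.38 without (-0.70 to -0.07, adjusted p = 0.0779). Without Ctrl 5-FU library 1, which stood apart over all genes, the change without antibiotics was -0.55 with adjusted p = 0.00803. Leaving out that library raised the number of the 10 genes called without antibiotics to 6 (3 higher, 3 lower), and added Gpx4, Txnrd1 and Gclm. Over all genes, leaving out 1 library gave 941 to 2080 called in this comparison, against 1846 with all 12. The share of all genes called in that one fit is not reported here, so the 6 of 10 has no background beside it.

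Prdx2, the peroxiredoxin abundant in red cells, had 51.4 to 54.5 RPKM in ABX 5-FU against 52.5 to 60.3 RPKM in ABX libraries, a log2 change of -0.11 (-0.33 to 0.11, limma adjusted p = 0.427). It had 47.2 to 61.5 RPKM in Ctrl 5-FU against 56.6 to 64.9 RPKM in Ctrl libraries, a log2 change of -0.21 (-0.43 to 0.01, adjusted p = 0.156). The groups overlapped in both. In the second comparison Ctrl 5-FU library 2 was high, and without it the change was -0.32 (adjusted p = 0.0312).

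The superoxide dismutases differed in their estimates and neither was called. Sod1 had 8.55, 7.36 and 8.09 RPKM in ABX 5-FU against 8.31, 10.1 and 9.28 RPKM in ABX libraries (log2 change -0.18, -0.42 to 0.05, limma adjusted p = 0.22). It had 7.05, 8.14 and 6.57 RPKM in Ctrl 5-FU against 8.08, 9.01 and 10.6 RPKM in Ctrl libraries (-0.30, -0.54 to -0.07, adjusted p = 0.0663). Both pairs overlapped, the second by 1 library. Sod2 had 10.6, 10.01 and 9.79 RPKM in ABX 5-FU against 11.1, 10.4 and 10.4 RPKM in ABX libraries (-0.07, -0.21 to 0.08, adjusted p = 0.475). It had 11.3, 10.7 and 10.01 RPKM in Ctrl 5-FU against 10.9, 10.6 and 11.02 RPKM in Ctrl libraries (-0.02, -0.17 to 0.12, adjusted p = 0.813). These 2 intervals for Sod2 were the narrowest of the 10 genes.

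Txnrd1, the NADPH-dependent selenoenzyme that recharges thioredoxin, did not follow Txn1 in its estimates. It had 5.73, 5.85 and 6.46 RPKM in ABX 5-FU against 6.06, 5.81 and 5.71 RPKM in ABX libraries (log2 change 0.03, -0.19 to 0.25, limma adjusted p = 0.843). It had 4.82, 5.86 and 6.30 RPKM in Ctrl 5-FU against 5.24, 4.60 and 4.06 RPKM in Ctrl libraries (0.24, 0.02 to 0.46, adjusted p = 0.103). The second pair overlapped through Ctrl 5-FU library 1, and without that library the change was 0.33 (adjusted p = 0.0273).

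Gclm, the glutathione synthesis gene, had 1.96, 1.33 and 2.58 RPKM in ABX 5-FU against 3.28, 1.95 and 1.24 RPKM in ABX libraries. It had 2.10, 2.62 and 2.89 RPKM in Ctrl 5-FU against 1.46, 1.15 and 1.27 RPKM in Ctrl libraries. The groups without antibiotics did not overlap, while the ABX libraries held the highest value of all 12 and 1 of the 3 lowest. The log2 change was 0.62 without antibiotics (0.16 to 1.085, limma adjusted p = 0.0558) and -0.06 with antibiotics (-0.53 to 0.40, adjusted p = 0.844). The first value passed the test under 6 of 19 alternatives, among them without Ctrl 5-FU library 1 (0.71, adjusted p = 0.0489) and in a fit of the Ctrl 5-FU and Ctrl libraries alone (adjusted p = 0.0178). Across all 10 genes, the groups of a 5-FU comparison did not overlap for 4 genes with antibiotics (1 above, 3 below), against 49.9% of genes tested. Without antibiotics this was so for 4 genes (2 above, 2 below), against 37.0%.

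Several of these genes have near-identical pseudogenes, to which reads may be shared, since the counting rule is not given in the sources used here. For Prdx1 the table lists Gm21399 (chromosome 8, 98.33% identical over 597 nt) at 36.1 to 71.6 RPKM and Gm7204 (chromosome 16, 97.49%) at 12.4 to 24.3 RPKM. Gm21399 thus read 1.64 to 2.16 times the RPKM of Prdx1 itself in each library. RPKM is per gene length, and this copy (597 nt) is shorter than Prdx1 (3043 nt of exons). In estimated reads, Gm21399 came to a median of 36.5% of Prdx1, and Gm7204 to 12.7%. For Sod1 the table lists Gm8566 (chromosome 6, 97.85% identical over 465 nt) at 17.7 to 31.5 RPKM, which is 2.69 to 3.28 times the RPKM of Sod1. The estimated reads of Gm8566 came to a median of 33.7% of those of Sod1. Txn-ps1 (95.79% identical to Txn1) read 5.98 to 16.9 RPKM, and Tdpx-ps1 (96.31% identical to Prdx2) 26.6 to 33.9 RPKM. No such copy was above the lowest value of the table for Gpx1, Gpx4, Txnrd1, Cat, Sod2 or Gclm. The level order given above therefore holds for the listed values and is uncertain for Prdx1, Prdx2, Txn1 and Sod1.

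The log2 changes of all 5 copies were below 0 with 5-FU in both comparisons, like those of the genes they resemble, and 3 of 5 passed the test with antibiotics and 1 of 5 without. Gm21399 had 41.6 ± 4.83 RPKM in ABX 5-FU against 68.7 ± 2.52 RPKM in ABX libraries, and fell by 0.72 (SE 0.12, limma adjusted p = 0.0015). It had 41.8 ± 5.98 RPKM in Ctrl 5-FU against 60.1 ± 6.46 RPKM in Ctrl libraries, and fell by 0.51 (SE 0.12, adjusted p = 0.012). Txn-ps1 had 9.83 ± 0.458 RPKM in ABX 5-FU against 14.9 ± 3.12 RPKM in ABX libraries and fell by 0.54 (SE 0.15, adjusted p = 0.023). Its change without antibiotics was -0.39 (SE 0.15, adjusted p = 0.0922). Adding the reads of the copies to the gene, an alternative chosen after the values were seen, gave -0.56 with and -0.46 without antibiotics for Prdx1 and -0.38 with and -0.47 without for Txn1, and left 3 of 10 genes called in each comparison.

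**Figure D3:**
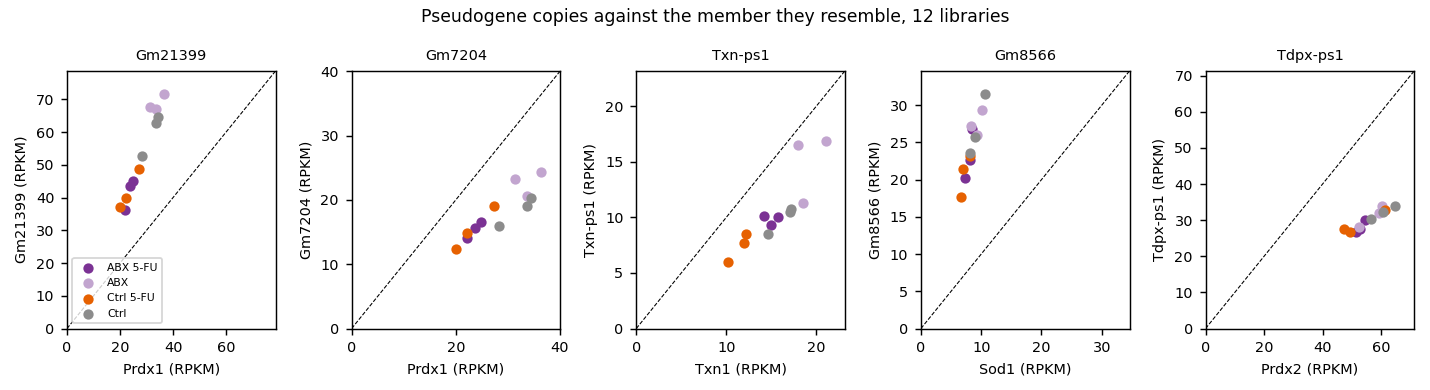
Each panel plots the RPKM of a pseudogene copy (vertical axis) against the RPKM of the gene it resembles (horizontal axis) in the 12 libraries, coloured by group, with a dashed line where both are equal. Gm21399 and Gm8566 lie above the line in all libraries and the other 3 copies below it.

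Gclm overlaps Gm17494, a transcript on the opposite strand listed at 2.22 to 4.55 RPKM, and Prdx2 overlaps Rnaseh2a on the opposite strand at 3.77 to 5.77 RPKM. The strand setting of the counting is not given, so reads of these pairs cannot be told apart. One noncoding Gclm transcript also shares a stretch of 244 nt, 100% identical, with Gm10123, a feature listed at 1296 to 2662 RPKM.

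The second question was what antibiotics changed, once after 5-FU and once without it. None of the 10 genes passed the test in either comparison (limma, 0 of 10 each), against 0.117% of genes tested after 5-FU and 0.0702% without 5-FU. At an unadjusted p under 0.05 there were 2 of the 10 after 5-FU, against 14.9% of genes tested, and 3 of 10 without 5-FU, against 17.8%. These comparisons use the same 4 groups as the 5-FU comparisons, so their values are not independent of them.

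After 5-FU, Txn1 had 15.8, 14.2 and 14.9 RPKM in ABX 5-FU against 12.2, 12.0 and 10.2 RPKM in Ctrl 5-FU libraries. Every ABX 5-FU library lay above every Ctrl 5-FU library. The log2 change was 0.36 (0.15 to 0.57) with an unadjusted p of 0.00278 and a limma adjusted p of 0.119. Cat had 9.06 to 10.3 RPKM in ABX 5-FU against 7.71 to 8.74 RPKM in Ctrl 5-FU libraries, which did not overlap (0.21, 0.02 to 0.41, unadjusted p = 0.0348, limma adjusted p = 0.294). The groups overlapped for each of the other 8 genes. Their log2 changes were -0.06 for Gpx1, 0.05 for Gpx4, 0.04 for Prdx1, 0.01 for Prdx2, 0.08 for Txnrd1, 0.13 for Sod1, -0.06 for Sod2 and -0.27 for Gclm, each with a 95% interval that includes 0. The interval of Gclm was the widest, at -0.74 to 0.19. Of the 10 genes, 2 did not overlap, against 21.2% of genes tested.

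Without 5-FU, 3 genes had groups that did not overlap, against 22.1% of genes tested. Txnrd1 had 6.06, 5.81 and 5.71 RPKM in ABX against 5.24, 4.60 and 4.06 RPKM in Ctrl libraries (log2 change 0.29, 0.07 to 0.51, unadjusted p = 0.0132, limma adjusted p = 0.194). Txn1 had 17.98, 21.1 and 18.5 RPKM in ABX against 17.1, 14.6 and 17.2 RPKM in Ctrl libraries (0.22, 0.01 to 0.43, unadjusted p = 0.0382, limma adjusted p = 0.256). Both were above in ABX libraries, and the third, Gpx1, was below. Gpx1 had 703.9, 798.1 and 861.7 RPKM in ABX against 933.8, 962.5 and 894.5 RPKM in Ctrl libraries (-0.24, -0.42 to -0.07, unadjusted p = 0.0107, limma adjusted p = 0.181). The groups overlapped for the other 7 genes. Their log2 changes were -0.11 for Gpx4, 0.07 for Prdx1, -0.08 for Prdx2, 0.01 for Sod1, -0.02 for Sod2, 0.11 for Cat and 0.41 for Gclm, each with a 95% interval that includes 0. That of Gclm was -0.05 to 0.87. ABX libraries were also the shallower ones, at 29.2 to 37.9 M reads against 44.3 to 54.9 M reads in Ctrl libraries, and the part of depth in these values was not tested.

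The third question was whether the 5-FU change differed with antibiotics, which the interaction tested as the change in ABX mice minus the change in Ctrl mice. None of the 10 genes passed (limma, 0 of 10), against 0.0117% of genes tested. At an unadjusted p under 0.05 there was 1 of 10, against 8.3% of genes tested: Gclm, with an interaction of -0.69 (-1.34 to -0.03, unadjusted p = 0.0413, limma adjusted p = 0.598). The intervals of the 3 genes called with 5-FU were -0.39 to 0.32 for Prdx1, -0.16 to 0.43 for Txn1 and -0.17 to 0.38 for Cat. Each of these includes both 0 and a difference of more than 0.3, so a like change in ABX and Ctrl mice is not shown. The interaction was 0.18 for Gpx1, 0.16 for Gpx4, 0.10 for Prdx2, -0.21 for Txnrd1, 0.12 for Sod1 and -0.04 for Sod2, each with a 95% interval that includes 0.

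**Figure D4:**
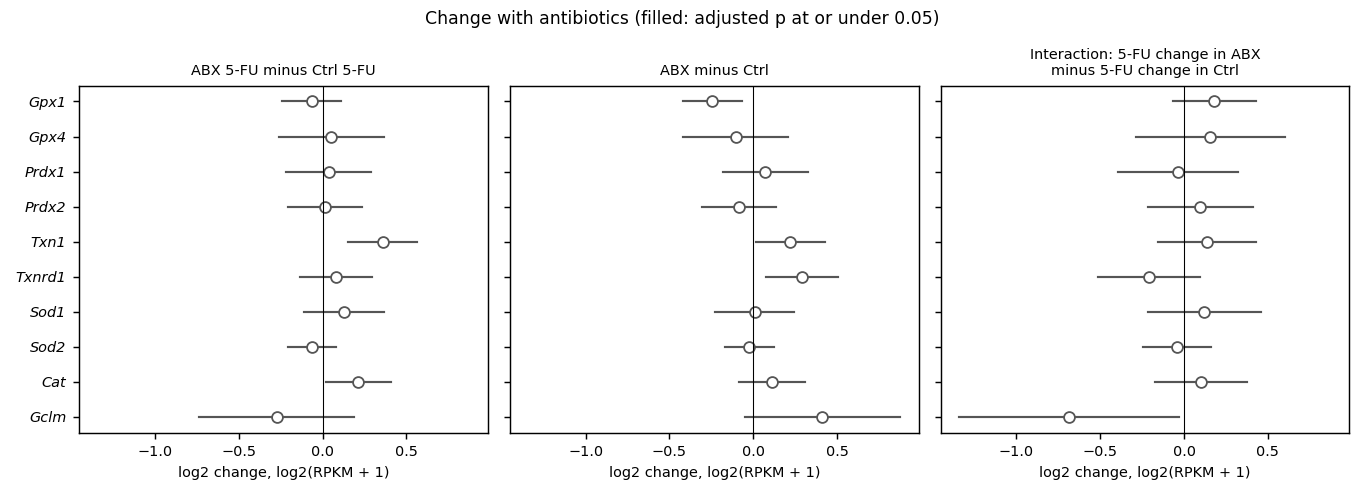
Points give log2 changes and lines 95% confidence intervals from limma, for ABX 5-FU minus Ctrl 5-FU, ABX minus Ctrl, and the interaction (5-FU change in ABX minus 5-FU change in Ctrl). All points are open, since no gene had an adjusted p at or under 0.05, and the interaction interval of Gclm is the widest.

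Genes with the most similar pattern over the 4 group means were looked up for the 3 genes called. Likeness was the root mean square difference of centred log2 group means, among 2631 genes with a mean of at least 5 RPKM. Prdx1 was nearest to Romo1 (0.0271), which encodes a small mitochondrial inner membrane protein, and to Pole3 (0.0273), a subunit of DNA polymerase epsilon. Romo1 had group means of 24.2 RPKM in ABX 5-FU, 32.9 in ABX, 22.8 in Ctrl 5-FU and 32.5 in Ctrl libraries. Txn1 was nearest to Hmgb2 (0.0207), a chromatin protein, and to Rpl36a (0.0232), a ribosomal protein gene. Cat was nearest to Msn (0.0259), which encodes moesin, and to Rab14 (0.0270), which encodes a GTPase of membrane traffic. With 4 group means per gene these are descriptions only.

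The wider redox network was read from 9 further lists with 135 genes, of which 90 entered the test. With 5-FU and antibiotics 27 of the 90 changed (13 higher, 14 lower), which is 30.0% against 30.2% of all genes tested. Without antibiotics 25 of 90 changed (11 higher, 14 lower), 27.8% against 21.6%. None of the 90 changed with antibiotics in either comparison or in the interaction (limma).

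The counts of each list below stand against the shares of all genes tested. With 5-FU, these were 16.5% lower and 13.7% higher in ABX mice, and 11.8% lower and 9.74% higher in Ctrl mice. Among the 15 other peroxiredoxin, thioredoxin and glutaredoxin genes tested, 5 were lower with 5-FU in ABX mice and 4 in Ctrl mice, and none was higher. When values were rescaled to a common sum, which put the median of all genes at 0.15 with and 0.18 without antibiotics, these counts became 2 lower and 1 higher in ABX mice and 1 lower and 1 higher in Ctrl mice. The 4 in Ctrl mice became 2 without Ctrl 5-FU library 3 and 1 in a fit of the Ctrl 5-FU and Ctrl libraries alone. The 5 in ABX mice became 3 without ABX library 2, ABX 5-FU library 2 or ABX 5-FU library 3, and 1 gene was called higher there without ABX library 1 or Ctrl 5-FU library 1. Prdx6, which reduces phospholipid peroxides, had 40.1, 39.8 and 40.2 RPKM in ABX 5-FU against 55.6, 56.9 and 54.9 RPKM in ABX libraries and fell by 0.47 (SE 0.069, limma adjusted p = 0.000966). It had 44.2, 50.4 and 44.5 RPKM in Ctrl 5-FU against 55.9, 59.3 and 62.3 RPKM in Ctrl libraries and fell by 0.35 (SE 0.069, adjusted p = 0.00691). The mitochondrial thioredoxin Txn2 averaged 8.38 ± 0.581 RPKM in ABX 5-FU and 11.6 ± 0.692 RPKM in ABX libraries and fell by 0.43 (SE 0.082, adjusted p = 0.00327). It averaged 9.86 ± 1.02 RPKM in Ctrl 5-FU and 13.7 ± 0.196 RPKM in Ctrl libraries and fell by 0.44 (SE 0.082, adjusted p = 0.00479). The calls of Txn2 held under all 19 alternatives. Of the 3 other superoxide dismutase and glutathione peroxidase genes tested, 1 changed: Ccs, the copper chaperone of Sod1, fell by 0.28 in Ctrl mice (SE 0.078, adjusted p = 0.0251), a call lost under 6 of 19 alternatives, among them without Ctrl 5-FU library 1.

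The 10 glutathione genes tested split evenly, with 2 higher and 2 lower in both comparisons. Mgst1, a membrane-bound glutathione transferase with peroxidase activity, averaged 4.81 ± 1.096 RPKM in ABX 5-FU and 2.09 ± 0.206 RPKM in ABX libraries (log2 change 0.90, SE 0.15, limma adjusted p = 0.00163). It averaged 3.61 ± 0.903 RPKM in Ctrl 5-FU and 1.69 ± 0.247 RPKM in Ctrl libraries (0.76, SE 0.15, adjusted p = 0.00622). Gstm1, a cytosolic transferase, averaged 64.9 ± 2.71 RPKM in ABX 5-FU and 35.9 ± 5.79 RPKM in ABX libraries (0.84, adjusted p = 0.00219), and rose by 0.74 in Ctrl mice (adjusted p = 0.00706). Gstp1 and Gsta4, of other transferase classes, fell by 0.40 and 0.38 with antibiotics and by 0.46 and 0.41 without (adjusted p 0.00775 to 0.0168). These are families of close paralogs, whose counts may share reads.

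The NRF2 list, with 13 genes tested, had 2 higher and 2 lower in ABX mice and 3 higher and 1 lower in Ctrl mice. The 2 lower in ABX mice became 0 or 1 under 12 of 19 alternatives, among them those without any 1 ABX or ABX 5-FU library. Sqstm1, which encodes the autophagy receptor p62 that binds the NRF2 inhibitor KEAP1, averaged 37.3 ± 0.682 RPKM in ABX 5-FU and 22.2 ± 2.85 RPKM in ABX libraries (log2 change 0.73, SE 0.091, limma adjusted p = 0.000436). It averaged 38.3 ± 1.64 RPKM in Ctrl 5-FU and 28.2 ± 2.31 RPKM in Ctrl libraries (0.43, SE 0.091, adjusted p = 0.00864). Nfe2l2, which encodes NRF2, rose by 0.49 in ABX mice (5.03 ± 0.236 RPKM in ABX 5-FU and 3.30 ± 0.349 RPKM in ABX libraries, adjusted p = 0.00126), and the small Maf gene Mafk rose by 0.49 in Ctrl mice (adjusted p = 0.00758). Nqo1, a quinone reductase and common NRF2 target, went the other way: it averaged 0.558 ± 0.0113 RPKM in Ctrl 5-FU and 1.19 ± 0.207 RPKM in Ctrl libraries and fell by 0.49 (adjusted p = 0.00188). Its fall of 0.22 in ABX mice (adjusted p = 0.0445) was lost under 11 of 19 alternatives, and that of another small Maf gene, Mafg, by 0.39 (adjusted p = 0.0343), under 7.

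Of the 11 ferroptosis modulators tested, 3 were higher and 0 lower in ABX mice, and 2 were higher and 1 lower in Ctrl mice. Lpcat3, which places polyunsaturated fatty acids into membrane phospholipids, rose by 0.51 in ABX mice (3.89 ± 0.382 RPKM in ABX 5-FU and 2.43 ± 0.191 RPKM in ABX libraries, limma adjusted p = 0.00231). Fads2, a desaturase that makes such fatty acids, rose by 0.60 there (2.91 ± 0.300 RPKM in ABX 5-FU and 1.59 ± 0.370 RPKM in ABX libraries, adjusted p = 0.0112). Gch1, which makes the radical-trapping cofactor tetrahydrobiopterin, rose by 0.81 in Ctrl mice (3.38 ± 0.905 RPKM in Ctrl 5-FU and 1.47 ± 0.166 RPKM in Ctrl libraries, limma adjusted p = 0.00225). It also rose in ABX mice, by 0.44 (limma adjusted p = 0.0253). Ncoa4, the receptor that delivers ferritin for breakdown, rose by 0.42 in Ctrl mice (adjusted p = 0.0298), and Por, a reductase linked to lipid peroxidation, fell by 0.33 (adjusted p = 0.0287). Those last calls were lost under 5 and 8 of 19 alternatives. Members that promote and members that restrain lipid peroxidation are thus both among those higher. Without Ctrl 5-FU library 1 the counts in Ctrl mice were 4 higher and 1 lower, and without Ctrl library 2 or 3 or Ctrl 5-FU library 2 they were 1 higher and 0 lower. Without ABX library 2 those in ABX mice were 1 higher and 0 lower.

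Of 15 genes of selenoprotein synthesis and other selenoproteins, 1 was lower in both comparisons. This was 2700094K13Rik, the table's name for Selenoh, a nuclear selenoprotein, at 29.4 ± 1.15 RPKM in ABX 5-FU and 48.6 ± 5.62 RPKM in ABX libraries (log2 change -0.70, SE 0.095, limma adjusted p = 0.00062). It had 24.5 ± 2.03 RPKM in Ctrl 5-FU and 39.8 ± 2.96 RPKM in Ctrl libraries (-0.67, SE 0.095, adjusted p = 0.00138). Sepp1 (Selenop), which encodes the secreted selenium carrier, rose by 0.77 in ABX mice (43.9 ± 8.25 RPKM in ABX 5-FU and 25.1 ± 1.65 RPKM in ABX libraries, adjusted p = 0.0326), a call lost under 6 of 19 alternatives.

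Among the 8 genes of NADPH supply, Idh1, the cytosolic isocitrate dehydrogenase, rose by 0.70 in ABX mice (3.22 ± 0.0908 RPKM in ABX 5-FU and 1.61 ± 0.263 RPKM in ABX libraries, limma adjusted p = 0.000354) and by 0.41 in Ctrl mice (adjusted p = 0.00745). Tkt, of the pentose phosphate pathway, fell by 0.40 in ABX mice (13.9 ± 0.346 RPKM in ABX 5-FU and 18.7 ± 1.02 RPKM in ABX libraries, adjusted p = 0.00215) and by 0.28 in Ctrl mice (adjusted p = 0.018). The remaining 6 were not called in either comparison.

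Of 11 redox regulators, 3 were higher and 2 lower in each comparison, and in Ctrl mice 1 was higher without Ctrl library 3 or Ctrl 5-FU library 3 and 0 in a fit of those 2 groups alone. Prkaa1, a catalytic subunit of the energy sensor AMPK, rose by 0.47 in ABX mice (adjusted p = 0.000521) and by 0.28 in Ctrl mice (limma adjusted p = 0.0105). Sesn1, which encodes the stress-induced sestrin 1, rose by 0.63 in ABX mice (limma adjusted p = 0.00133) and by 0.31 in Ctrl mice (adjusted p = 0.0475). Hif1a, the hypoxia-inducible factor, rose by 0.58 in Ctrl mice (limma adjusted p = 0.0252) and was not called in ABX mice (0.19, adjusted p = 0.396). The Hif1a call was lost under 5 of 19 alternatives. Apex1, a DNA repair enzyme and redox factor, averaged 43.9 ± 1.2 RPKM in ABX 5-FU and 68.2 ± 1.59 RPKM in ABX libraries and fell by 0.62 (limma adjusted p = 0.00105), with a fall of 0.44 in Ctrl mice (adjusted p = 0.00881). Park7, an oxidant-sensing chaperone, fell by 0.36 in ABX mice (adjusted p = 0.0107) and by 0.45 in Ctrl mice (limma adjusted p = 0.00558). Of 4 oxidant sources tested, Rac2, a GTPase of the NADPH oxidase, fell by 0.40 in ABX mice (adjusted p = 0.0087) and by 0.48 in Ctrl mice (limma adjusted p = 0.00618). Ncf1, an organizer subunit of that oxidase, rose by 0.48 in ABX mice (limma adjusted p = 0.0392), a call lost under 7 of 19 alternatives. Of the other calls named from these lists, those of Prdx6 (2 alternatives), Tkt (4), Apex1, Prkaa1 and Gsta4 (1 each) in Ctrl mice and of Gsta4 (2), Gstp1, Fads2, Park7 and Rac2 (1 each) in ABX mice were also lost under some alternative, and none of them turned its sign. For the calls of Nfe2l2 and Sesn1 in Ctrl mice and of Gch1 in ABX mice, the alternatives are not reported here.

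**Figure D5:**
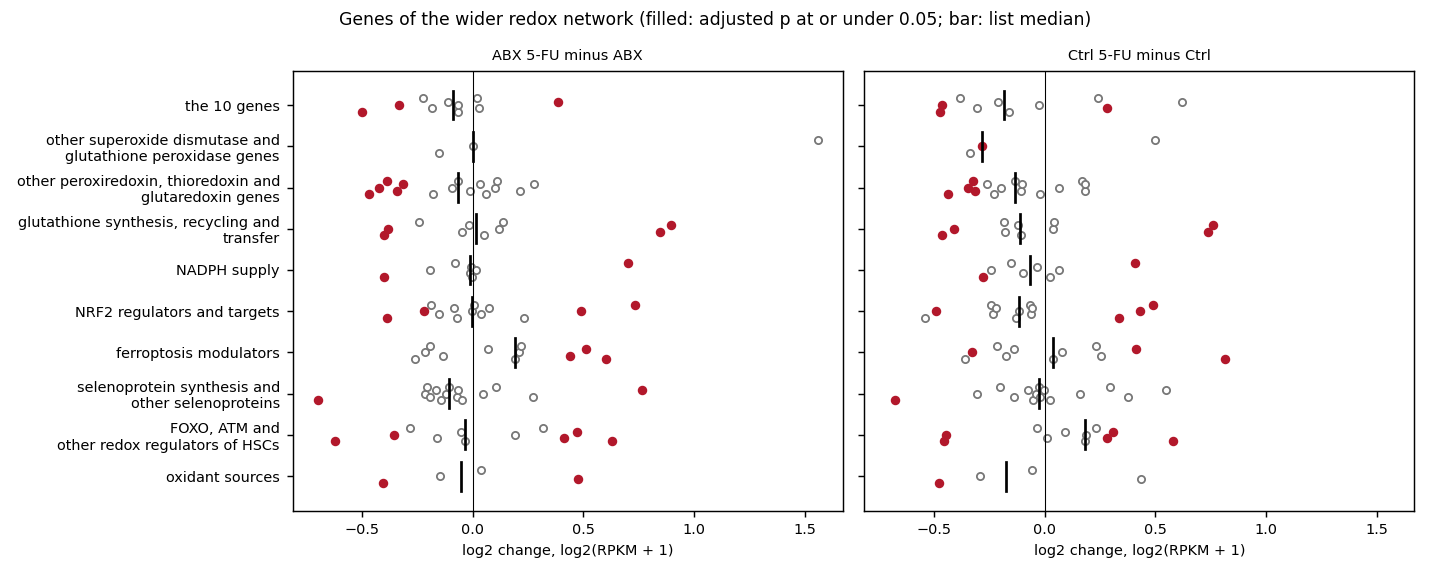
Each point is 1 gene, placed by its log2 change in ABX 5-FU minus ABX (left) and Ctrl 5-FU minus Ctrl (right), with the lists down the page; filled points have an adjusted p at or under 0.05 and black bars are list medians. The peroxiredoxin, thioredoxin and glutaredoxin list has filled points left of 0 only, and the other lists with more than 1 filled point have them mostly on both sides.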

How the data were processed

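Per the labels' protocols, a column kit gave RNA of 2000 sorted HSCs for each library, and SMART-Seq v4 and Nextera XT were the library kits. The deposited table gives RPKM values made by the authors. STAR 2.5.3a, Partek and the mm10 build are named in the submitters' processing notes. How reads were counted, whether by strand and on which annotation, is not given in the sources used here. Zeros appear as 0.0001.

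With R 4.3.3 and limma 3.58.1, log2(RPKM + 1) of genes reaching 1 RPKM in 3 libraries or more was fitted over all 12 libraries with 4 group means (8 residual and 3.34 prior degrees of freedom, intensity trend), two-sided, with Benjamini-Hochberg adjustment over all genes within a comparison and a threshold of 0.05. The procedure was tested on simulated data. An exact permutation test of 3 against 3 libraries cannot go below p = 0.1, so none was run. Between 41.3% and 46.8% of low values lay within 0.02 reads of a whole read, too few to recover counts. Groups did not overlap where all 3 libraries of 1 group lay above all 3 of the other. Pseudogene copies were found with BLAST+ 2.17.0 in GENCODE M21 transcripts, at 90% identity or more over at least 80% of the copy. Of the 135 listed symbols, 11 were matched through RefSeq synonyms.

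The genes and lists were chosen with earlier results of these data known. All 10 genes are named in each comparison, marker lists are given by summed levels, counts and defining markers, with called markers named after their values were seen (some are not reported here), and from each further list up to 2 called genes per direction and comparison with the smallest p. Alternatives were the pseudocount, the filter, 2 scalings, fits of the compared groups alone, no trend, the i7 index as a block, leaving out each library, and adding reads of copies.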

Additional observations from a re-analysis of the deposited data

How the results depend on the processing

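Without antibiotics, 3 of the 10 genes changed with 5-FU. With no filter on low values, where more genes were tested, this was 1, and the cause was not tested. With each library rescaled to the same sum (TPM) it was 5. Leaving out 1 library gave 1 to 6 (1 without Ctrl library 3 or Ctrl 5-FU library 3, 6 without Ctrl 5-FU library 1). Over all genes it gave 941 to 2080 called. The all-gene counts of the unfiltered and rescaled fits of this comparison are not reported here. With antibiotics, leaving out 1 library gave 2 to 3 genes. The counts for antibiotics and the interaction stayed at 0 under every alternative run. The rescaling moved the median of all genes to 0.18 without and 0.15 with antibiotics.

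Under that rescaling the sign turned for Gpx1 (0.0217) and Sod2 (0.152) with 5-FU without antibiotics, for Gclm (0.0835), Prdx2 (0.0610) and Sod2 (0.101) with 5-FU and antibiotics, for Sod1 (-0.0243) with antibiotics without 5-FU, and for Prdx1 (-0.00200) and Prdx2 (-0.0252) with antibiotics after 5-FU. Median-of-ratios scaling also turned Sod1 with antibiotics without 5-FU (-0.0163). The cause was not tested. None of these values passed the test in the fit reported.

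Leaving out 1 library turned the sign of these uncalled log2 changes. With 5-FU and antibiotics they were Gclm (-0.287 to 0.181), Gpx1 (-0.0594 to 0.0863) and Txnrd1 (-0.0147 to 0.0596), and with 5-FU without antibiotics Sod2 (-0.0625 to 0.0149). With antibiotics after 5-FU they were Gpx4 (-0.0890 to 0.223), Prdx1 (-0.0589 to 0.155), Prdx2 (-0.0587 to 0.128) and Txnrd1 (-0.0144 to 0.150). With antibiotics without 5-FU they were Prdx1 (-0.0137 to 0.125) and Sod1 (-0.0743 to 0.0993), and in the interaction Prdx1 (-0.131 to 0.0829).

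Over all genes, 5-FU without antibiotics called 1846, and 853 in a fit of those groups alone, 941 without Ctrl library 3 and 995 without Ctrl 5-FU library 3. With antibiotics 5-FU called 2586, and 1620 without ABX library 2 and 1651 without ABX 5-FU library 2. Antibiotics without 5-FU called 6, against 11 without the filter, 13 after rescaling, 20 with the index block and 1 to 25 leaving out 1 library. Antibiotics after 5-FU called 10, against 47 after rescaling, 3 in the groups alone, 22 with the index block and 6 to 28 leaving out 1 library. The interaction called 1, against 7 without the filter and 0 with the index block.

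No paired analysis was possible because the labels number no replicates; the i7 index, shared by 1 library with and 1 without antibiotics, was used as a block instead and changed no call of the 10 genes. Depth is lowest for Gclm, Txn1 or Cat, depending on the library, at 265 to 683 estimated reads. Sort gates, animals and the counting of shared reads are not known.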
